A study of Mus musculus with 96 samples.

Results

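The genes described here encode the proteins of the cytosolic ribosome of the mouse. They are the 82 protein-coding genes of 56748 in the count table whose symbol has the form Rpl, Rps, Rplp or Rpsa with its number and letter, without the Rps6k kinases. Of these, 51 encode proteins of the large subunit (Rpl, Rplp) and 31 proteins of the small subunit (Rps, Rpsa). The form of the symbol leaves out a few other genes that encode ribosomal proteins, of which Rps3a1, Fau, Rack1 and Rpl36al are given separately. RNA was sequenced from liver, skeletal muscle and cerebral cortex of mice with unlimited food (ad libitum, AL) and of mice on intermittent fasting (IF), and the question was what IF does to these tissues. The AL mice were numbers 1 to 8 and 25 to 32, and the IF mice were numbers 9 to 16 and 33 to 40, with 8 mice per diet in each set and the 3 tissues taken from each mouse. The labels call mice 1-16 male and mice 25-40 female, so sex cannot be told apart from the set of mice. The study's methods describe male C57BL/6 mice that began at 6 weeks of age and were kept for 4 months on a daily fast of 16 h or on free food. These mice were killed at the end of the fasting window, so the regimen cannot be told apart from the fasted state at collection. The methods used here give no age, duration or time of collection for the female mice.

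Each ribosome holds a single copy of nearly every one of these proteins around its ribosomal RNA, and the subunits join on an mRNA to make protein. Their mRNAs are among the most abundant in a cell and usually begin with a run of pyrimidines, the terminal oligopyrimidine (TOP) motif, through which their translation follows nutrients and growth signals acting on the mTORC1 kinase. The liver is known for losing protein and ribosomes in a fast and regaining them on refeeding. A few members have a close paralogue with its own tissue pattern, such as the muscle form Rpl3l.

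The promoter table (RefSeq, GRCm38.p6, 250 bases before to 50 after each annotated start) held 62 of the 82 genes. A run of at least 8 C or T bases on the gene's strand lay within 50 bases of the annotated start in 52 of these 62 genes (83.9%), against 6503 of 16770 protein-coding promoters searched in the same window (38.8%). The ETS-type motif CCGGAAG, on either strand of the 300 bases, was found in 25 of the 62 (40.3%) and in 13.2% of all. TATAAA, on the gene's strand within 50 bases of the start, was found in 5 (8.06%) and in 4.54%. A match is a description of the sequence and not a site. The stretches of 30 bases below are shown because they set the start regions of genes with high IF over AL fold changes in male liver beside those of genes with low ones. They were chosen among the genes with an entry and such a run, and the capitals mark each run of at least 8.

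Rpl41, chr10:128549119-128549148, minus strand: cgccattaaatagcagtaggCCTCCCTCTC

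Rplp2, chr7:141447636-141447665, plus strand: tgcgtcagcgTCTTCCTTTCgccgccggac

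Rps9, chr7:3704025-3704054, plus strand: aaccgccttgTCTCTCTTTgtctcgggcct

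Rpl9, chr5:65391383-65391412, minus strand: acgaaagacgTTCTCTCTTTgccccatcta

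Rpl5, chr5:107900498-107900527, plus strand: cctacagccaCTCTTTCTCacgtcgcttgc

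Rpl15, chr14:18270967-18270996, minus strand: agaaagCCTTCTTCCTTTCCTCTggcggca

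Rpl14, chr9:120571501-120571530, plus strand: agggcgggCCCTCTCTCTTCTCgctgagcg

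Rpl35, chr2:39005115-39005144, minus strand: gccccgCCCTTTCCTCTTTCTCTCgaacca

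Rps10, chr17:27635226-27635255, minus strand: cgcgcacgCCCCTTCCTTTCCagcctccgc

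Rps27l, chr9:66946054-66946083, plus strand: cccgcctccaCTCCTCTCCaCTCCTCCCCg

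Among the genes so chosen the first 5 had the highest fold changes and the last 5 the lowest. The choice itself gave each a run, and it left out Rps4x, which had a higher fold change than Rps9 and no such run in the window. The longest run of each began between 22 bases before and 41 bases after the annotated start, and the longest of all, of 18 bases, was that of Rpl35. Among the genes tested in male liver, the 50 with a run had a median log2 fold change of 0.52, and 37 of them were called higher. The 9 without a run had a median of 1.05, and 8 of them were called higher. The 24 genes with CCGGAAG had a median of 0.44 and the 35 without it a median of 0.88. These medians are descriptions without a test, over promoters with a matched entry.

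Counts per library summed to between 26097314 and 49838004 over the 95 libraries used. The library labelled cortex AL mouse 1 was left out: it is labelled male, yet it held 213 CPM (counts scaled to a library total of 1000000) of Xist, the RNA of the inactive X chromosome, and none of the Y-linked genes, and over 15407 genes it was closest to the cortex of female IF mouse 40 (Pearson's r of log2 CPM 0.997, across genes). Of the 82 genes, 46 overlap another gene of the table, 33 of them on the same strand, and 63 have named pseudogene rows. How the counting treated strand and reads with several matches is not given in the sources used here. Rps10, Rpl24 and Rpl13a lay at 0.367 to 10.4, 0.124 to 3.26 and 4.07 to 38.4 CPM over all libraries, each overlaps a same-strand gene listed at 0 CPM, and their values are uncertain. No count fell on Rpl10l in any library.

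Ribosomal protein mRNAs took up more of the RNA in the livers of IF males than in those of AL males. The 82 genes held 1.29% to 1.98% of all counts in the 8 AL livers, with a median of 1.60%, and 2.50% to 3.49% in the 8 IF livers, with a median of 2.75%. The groups did not overlap, and the ratio of the means was 1.77. Counts of mitochondrially encoded genes moved the other way, from 14.5% to 25.1% of the library in AL livers to 8.75% to 13.9% in IF livers. With these counts taken out of the totals, the share was 1.72% to 2.32% in AL and 2.83% to 3.82% in IF livers, again with no overlap and with a ratio of 1.59. In bulk tissue, fewer cells of a type and less RNA per cell cannot be told apart.

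**Figure D1:**
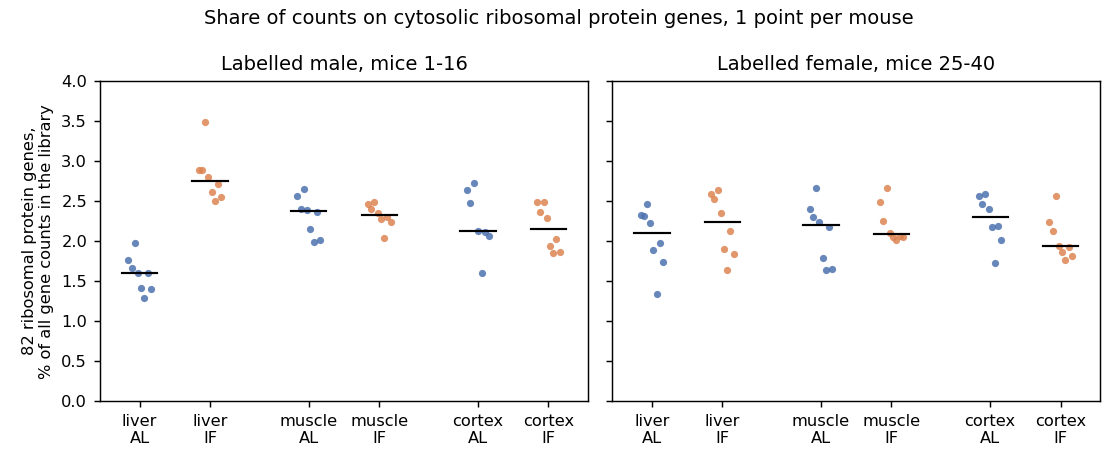
Percent of all gene counts on the 82 ribosomal protein genes, 1 point per library, for AL and IF mice in liver, muscle and cortex, with mice 1-16 (labelled male) on the left and mice 25-40 (labelled female) on the right. The 8 IF livers of mice 1-16 sit between 2.50% and 3.49%, all above the 8 AL livers, and the diets overlap in every other tissue and set.

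In the other tissues and in the females the shares overlapped between the diets. Male muscle held 1.99% to 2.65% in AL and 2.03% to 2.49% in IF mice, and male cortex 1.61% to 2.73% (n = 7) and 1.85% to 2.49%. Female liver held 1.34% to 2.46% in AL and 1.64% to 2.64% in IF mice. The ratio of the means of IF over AL was 1.003 in male muscle, 0.962 in male cortex, 1.08 in female liver, 1.05 in female muscle and 0.896 in female cortex. The lowest shares among female livers were 1.34% in AL mouse 26, 1.64% in IF mouse 33 and 1.74% in AL mouse 31, whose mitochondrially encoded shares were 23.8%, 18.7% and 19.8%.

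In male liver, most of the ribosomal protein genes were higher under IF. Of the 79 tested with edgeR's quasi-likelihood test, 62 were higher at an adjusted p under 0.05 (Benjamini-Hochberg over all 16204 genes) and 1, Rps27l, was lower, while 23.5% of all genes tested were higher and 21.1% lower. The median log2 fold change of the 79 was 0.66, against 0.06 for all genes, and the values ran from -0.38 to 2.18. These shares and this median of all genes stand beside every group of genes counted in this fit below. In 48 of the 79 every IF liver lay above every AL liver, which held for 8.97% of all genes, and no member had every IF liver below, which held for 5.58%. Rpl3l, Rpl10l and Rpl39l were too low to be tested.

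Blood markers moved with this result. Of the 5 erythroid markers 3 were higher in IF livers, led by Hbb-bs and Hbb-bt, and none was at 0. Their sum was 362 to 956 CPM in AL and 667 to 6879 CPM in IF livers. The 3 IF livers with a sum inside the AL range, from mice 11, 12 and 15, held member shares of 2.89%, 2.50% and 2.62%, all above the highest AL liver. With the mean log2 CPM of the erythroid markers, rather than their sum, as a covariate 43 members were higher and none lower. In that fit 12.9% and 11.9% of all genes were. Without the IF mice 9, 10, 13, 14 and 16, 48 were higher and none lower, against 13% and 15.9%. Because erythroid markers were themselves higher in IF livers, these fits cannot fully tell blood content apart from diet. The sum of the adipocyte markers was 11.4 to 32.2 CPM in AL and 0.546 to 1.89 CPM in IF livers, with Cfd the single one of the 4 high enough to be tested. Of the 5 liver markers Apoa1 fell (-0.48 ± 0.13), and the sum of the 5 was 51511 to 79231 CPM in AL and 42422 to 66204 CPM in IF livers. The glia markers summed to 9.82 to 15.01 CPM in AL and 5.99 to 11.03 CPM in IF livers. Of the 3 tested 2 fell, among them Aqp4, and 1, Mbp, rose. Of the neuron markers, at 2.55 to 6.21 and 4.42 to 8.12 CPM in sum, Syt1 was the single one tested and rose (0.61 ± 0.18). The part of the adipocyte, liver, glia and neuron markers in the result was not tested.

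**Figure D2:**
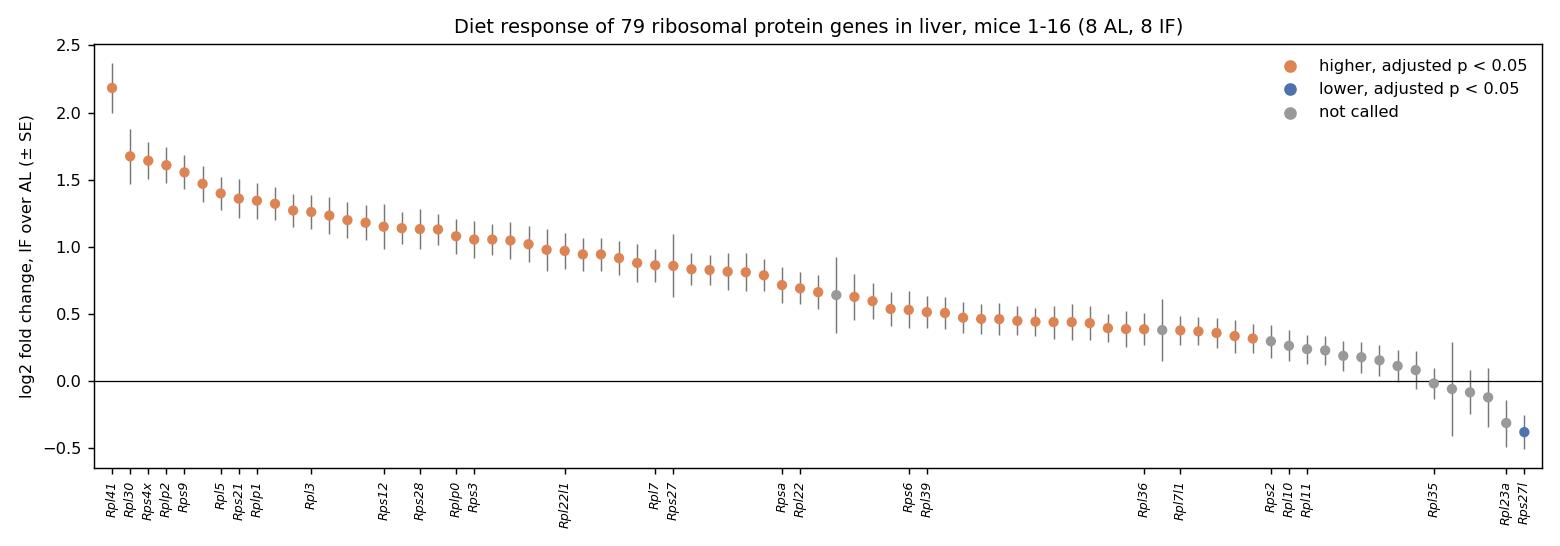
Log2 fold change of IF over AL with its SE for the 79 ribosomal protein genes tested in male liver (8 AL and 8 IF mice), ordered by size and coloured by the call at an adjusted p under 0.05, with labels on some of the genes. The values run from 2.18 for Rpl41 down to -0.38 for Rps27l, and 62 are called higher.

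Rpl41 (GRCm39 chr10:128383983-128385174, minus strand), the smallest protein of the ribosome, lying at the face between the subunits, had the highest fold change. Its level was 94.8 to 293 CPM in AL livers with a median of 152, and 592 to 1098 CPM in IF livers with a median of 782, so the groups did not overlap. The log2 fold change was 2.18 ± 0.18 (SE, n = 8 per group; edgeR adjusted p 2.45e-09). Within the counts on the 82 genes its share went from a median of 1.01% in AL to 2.80% in IF livers, again without overlap.

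The acidic stalk, through which the large subunit engages the elongation factors, rose as a whole. Rplp2 (GRCm39 chr7:141027283-141031498, plus strand) was at 98.8 to 175 CPM in AL livers (median 146) and at 389 to 601 CPM in IF livers (median 439), and rose by a log2 fold change of 1.61 ± 0.14. Its partner Rplp1 was at 328 to 561 CPM in AL (median 448) and at 1020 to 1637 CPM in IF livers (median 1180), a log2 fold change of 1.34 ± 0.14. For Rplp0, the base that anchors both, the levels were 181 to 336 and 489 to 756 CPM and the log2 fold change 1.08 ± 0.13. None of the 3 overlapped between the diets.

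Over the whole large subunit, Rpl41 and the stalk included, 35 of the 48 genes tested were higher and none lower, with a median log2 fold change of 0.51. Rpl30 was at 31.5 to 62.1 CPM in AL and 96.1 to 250 CPM in IF livers (log2 fold change 1.67 ± 0.20). Rpl9 was at 46.6 to 96.5 and 161 to 223 CPM (1.47 ± 0.13), and Rpl3, which lies by the peptidyl transferase centre, at 58.8 to 123 and 185 to 263 CPM (1.26 ± 0.13). No IF liver overlapped an AL liver for these 3. Of the proteins that carry the 5S RNA into the ribosome, Rpl5 was at 77.5 to 137 CPM in AL and 210 to 300 CPM in IF livers (1.40 ± 0.12). Rpl11 was at 257 to 321 and 322 to 437 CPM (0.24 ± 0.11) and was not called (edgeR adjusted p 0.0746), although every IF liver lay above every AL liver. The difference between Rpl5 and Rpl11 was not tested.

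The proteins at the rim of the exit tunnel, where the new chain leaves the ribosome, had 4 of 8 called higher and a median log2 fold change of 0.39, from -0.31 to 0.69. The median of all genes was 0.06. The difference of these 8 genes from the shares of all genes given above was not tested. Rpl22 (0.69 ± 0.12), Rpl39 (0.51 ± 0.12), Rpl26 (0.51 ± 0.12) and Rpl31 (0.39 ± 0.11) rose. Rpl35 was at 93.3 to 168 CPM in AL and 122 to 162 CPM in IF livers, with a log2 fold change of -0.02 ± 0.12. Rpl23a, a docking site for targeting factors, was at 14.1 to 48.9 and 22.02 to 34.8 CPM (-0.31 ± 0.18, edgeR adjusted p 0.154) and has 14 pseudogene rows. For both, the IF range lay inside the AL range.

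In the small subunit 27 of 31 genes were higher and 1 was lower, with a median log2 fold change of 0.86. Rps4x (GRCm39 chrX:101228547-101233000, minus strand), the X-linked gene of its protein, was at 60.8 to 127 CPM in AL livers (median 89.2) and at 258 to 400 CPM in IF livers (median 295), with a log2 fold change of 1.64 ± 0.14. Rps9 was at 125 to 212 CPM (median 173) and at 464 to 710 CPM (median 534), a log2 fold change of 1.55 ± 0.13. Every IF liver lay above every AL liver for both.

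Rps6, the protein phosphorylated by the S6 kinases downstream of mTORC1, rose less, from 131 to 313 CPM in AL livers (median 197) to 234 to 355 CPM in IF livers (median 318), with overlap (log2 fold change 0.53 ± 0.14, edgeR adjusted p 0.00302). Rpsa was at 505 to 891 and 895 to 1512 CPM (0.72 ± 0.13). Rps21, which binds Rpsa, was at 76.4 to 148 and 258 to 425 CPM (1.36 ± 0.15). Rps12 was at 54.6 to 115 and 147 to 316 CPM (1.15 ± 0.17). At the entry of the mRNA channel Rps3 was called (1.05 ± 0.14) and Rps2 was not (0.30 ± 0.12, edgeR adjusted p 0.0529).

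Rps27l (GRCm39 chr9:66853368-66856798, plus strand), a p53 target that can stand in for Rps27 in the ribosome, was the single member that fell. It was at 226 to 309 CPM in AL livers (median 238) and 163 to 236 CPM in IF livers (median 198), with a small overlap (log2 fold change -0.38 ± 0.12, edgeR adjusted p 0.0151). The call was lost with the erythroid covariate (edgeR adjusted p 0.212) and without the 5 IF mice named above (0.0770). Rps27 itself rose, from 56.8 to 197 CPM to 139 to 322 CPM (0.86 ± 0.24), with overlap, and that call was also lost in both settings (edgeR adjusted p 0.233 and 0.140). Of the other paralogue pairs, Rpl22l1 (0.97 ± 0.14) rose beside Rpl22 (0.69 ± 0.12), and Rpl7l1 (0.38 ± 0.11) beside Rpl7 (0.86 ± 0.12). Rpl10 had a log2 fold change of 0.26 ± 0.12 and was not called (edgeR adjusted p 0.0697).

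**Figure D3:**
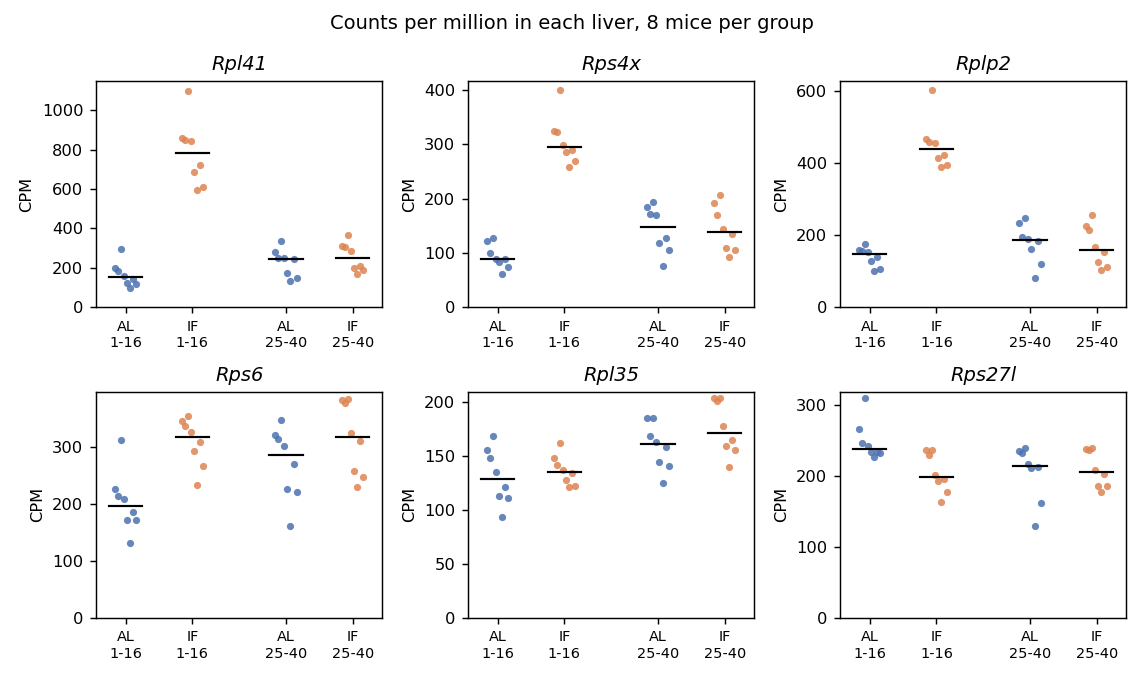
CPM of Rpl41, Rps4x, Rplp2, Rps6, Rpl35 and Rps27l in each liver, 8 mice per group, for AL and IF mice of both sets. In mice 1-16 the diets separate for Rpl41, Rps4x and Rplp2 and overlap for Rps6, Rpl35 and Rps27l, and in mice 25-40 they overlap for all 6.

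Because the genes rose by different amounts, the makeup of the ribosomal protein mRNA pool changed as well. As shares of the counts on the 82 genes, 17 genes had every IF liver above every AL liver, 12 every IF liver below, and 53 overlapped. Gains in median share were from 2.82% to 4.25% for Rplp1, from 1.11% to 1.89% for Rps9 and from 0.888% to 1.62% for Rplp2. Losses were from 3.55% to 2.57% for Rpl28, from 2.50% to 1.54% for Rpl14 and from 1.62% to 0.743% for Rps27l. A lower share of the pool is not a lower level: Rpl28 itself was higher (log2 fold change 0.32 ± 0.11). In the females all 82 shares overlapped. Across the 79 genes tested, Spearman's rho of the male liver fold change was 0.14 with gene length, 0.083 with mean CPM and -0.30 with the number of pseudogene rows, as descriptions over genes that share the same libraries.

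Of 5 listed ribosomal proteins outside the form of the symbol, 4 rose and 1 fell. Among those that rose were Rps3a1 (log2 fold change 1.51 ± 0.14), Fau (0.97 ± 0.14) and Rack1 (0.90 ± 0.10). The one that fell was Rpl36al (-1.02 ± 0.30, at 0.749 to 4.25 CPM). Of the 21 elongation factors and other TOP mRNAs 17 rose and none fell, with a median of 0.68. Eef2, which moves the ribosome along the mRNA, went from 286 to 486 CPM in AL to 1249 to 1559 CPM in IF livers (1.72 ± 0.11). Eef1b2 (1.38 ± 0.15), Eif3l (1.17 ± 0.09) and Eef1d (1.05 ± 0.12) rose too.

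Genes of ribosome assembly moved in both directions. Of 58 biogenesis genes 23 rose and 9 fell, with a median of 0.22, against 0.06 for all genes. The difference from the shares of all genes given above was not tested. Eif6, which keeps new large subunits from joining too early, was at 11.6 to 22.1 CPM in AL and 48.4 to 73.2 CPM in IF livers (1.83 ± 0.13). Rrp12 (1.26 ± 0.22), Nop10 (0.94 ± 0.13) and Gar1 (0.91 ± 0.17), which act in rRNA processing and pseudouridylation, rose.

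Of 36 genes of mTORC1 and translation control 9 rose and 6 fell, shares near the 23.5% and 21.1% of all genes, with a median of 0.02. Castor2, a relative of the arginine sensor Castor1, fell (-1.39 ± 0.14). Sesn2, a leucine sensor and stress gene (1.07 ± 0.16), Maf1, a repressor of RNA polymerase III (0.83 ± 0.09), and Eif4ebp1, the inhibitor of cap binding (0.76 ± 0.13), rose. Of 12 small nucleolar RNA host genes tested 2 rose and 3 fell, which is also near the shares of all genes. Those called included Snhg14 (-2.18 ± 0.26), Snhg17 (-0.99 ± 0.15) and Snhg12 (0.81 ± 0.10).

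Mitochondrial ribosomal proteins, which serve the separate ribosome of that organelle, moved in both directions. Of 77 tested 30 rose and 14 fell, with a median of 0.11, against 0.06 for all genes. The rises were led by Mrpl12 (1.54 ± 0.13), Mrps18a (1.43 ± 0.12), Mrpl28 (1.36 ± 0.12) and Mrps12 (1.33 ± 0.16). Their difference from the cytosolic members and from the shares of all genes given above was not tested. Of 314 ribosomal protein pseudogene rows 80 were tested, and 25 rose and 1 fell. Together they held 0.0578% to 0.0821% of counts in AL and 0.0995% to 0.131% in IF livers. Whether these counts come from reads of the parent genes was not tested.

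In female liver none of the 80 members tested was called, and neither was any of the 15938 genes (0%). At an unadjusted p under 0.05 edgeR gave 5 members (among them Rpl28, Rps15, Rpsa and Rpl10a) and 5.77% of all genes, and DESeq2 called 6 genes and no member. The median log2 fold change was 0.14, with 70 of 80 above 0. Rpl41 was at 132 to 335 CPM in AL livers (median 245) and 167 to 366 CPM in IF livers (median 247), with overlap (log2 fold change 0.20 ± 0.20). Rps4x (0.04 ± 0.20), Rplp2 (-0.03 ± 0.22) and Rps9 (0.12 ± 0.19) overlapped as well.

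The difference between the sets was tested directly. The liver response was lower in mice 25-40 than in mice 1-16 for 36 of 80 members and higher for 1, against 10.9% and 12.8% of all genes. The median difference in log2 fold change was -0.52. It was -1.95 ± 0.29 for Rpl41, -1.61 ± 0.27 for Rplp2, -1.57 ± 0.25 for Rps4x, -1.55 ± 0.38 for Rpl30 and -1.44 ± 0.22 for Rpl9. The member with a higher response was Rpl3l (3.21 ± 0.999), which had 3 to 61 counts per AL liver of mice 1-16. With the mean log2 CPM of the erythroid markers as a covariate 24 members were lower and none higher, against 6.88% and 9.45% of all genes in that fit. In the fit without the covariate Rps12 (-0.82 ± 0.33, edgeR adjusted p 0.0673) and Rps27l (0.48 ± 0.19, edgeR adjusted p 0.0633) were not called.

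Ranked by their male fold change, the upper members had the higher median spread among the 16 female livers, AL and IF together, with exceptions among single genes. Over the 26 members with the highest male fold changes (0.97 to 2.18) the median SD of log2 CPM among female livers was 0.40, and the highest liver was 2.53 times the lowest. Over the middle 25 members these values were 0.33 and 2.23, and over the 25 with the lowest fold changes 0.24 and 1.86. The most variable of all was Rpl7a of the middle group (SD 0.77, 7.10 times), and Rpl17 of the lowest group had an SD of 0.52 (3.50 times). Spearman's rho was 0.67 over 76 members with a mean of at least 20 CPM, a description over genes that share the same 16 libraries.

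**Figure D4:**
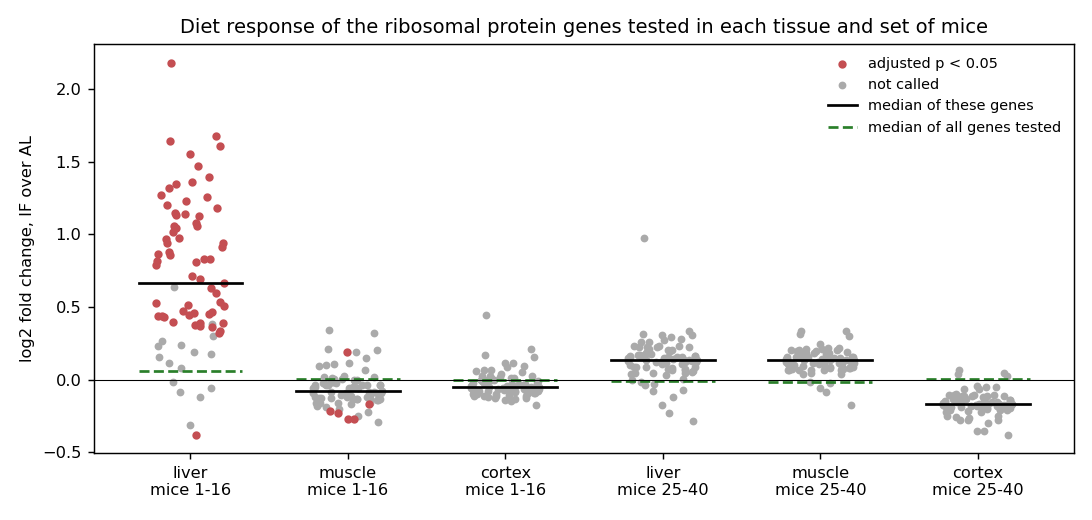
Log2 fold change of IF over AL for every ribosomal protein gene tested in each tissue and set of mice, with those at an adjusted p under 0.05 coloured, the median of these genes as a solid line and the median of all genes tested as a dashed line. The median is 0.66 in the liver of mice 1-16 and lies between -0.17 and 0.14 in the other 5 comparisons.

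In male muscle few ribosomal protein genes were called. Of 80 tested, 1 was higher and 5 were lower, against 11.5% and 11.6% of all 15025 genes, with a median log2 fold change of -0.08. Rps4x, which also rose in liver, was at 243 to 295 CPM in AL muscles (median 274) and 306 to 344 CPM in IF muscles (median 328), with no overlap (0.19 ± 0.06, edgeR adjusted p 0.0187). Rps3 (-0.27 ± 0.07), Rpl23a (-0.27 ± 0.08), Rps2 (-0.23 ± 0.07), Rpl15 (-0.21 ± 0.07) and Rpl3l (-0.17 ± 0.06) fell, with overlap in each. Every IF muscle lay above every AL muscle for 3 members, Rps4x, Rpl7 and Rps6, against 2.89% of all genes.

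These muscle values depended on scaling and length. Scaled by library totals alone, 7 members were higher and 1 lower, against 17% and 7.14% of all genes under that scaling. With an offset for gene length 3 were higher and 3 lower, against 11.5% and 11.6%. In a fit over all 3 tissues none was called (5 at an unadjusted p under 0.05), against 10.2% (22.5%) of all genes. The median log2 fold change of other protein-coding genes in male muscle ran from -0.16 for those up to 1000 bases long to 0.05 for those over 5000 bases. It was -0.079 for those of over 1000 and up to 2000 bases, where the median length of the members (1775.5 bases) falls. Adipocyte markers rose for 3 of 4 in IF muscles, their sum being 26.7 to 298 CPM in AL and 96.9 to 1598 CPM in IF mice. Skeletal muscle markers fell for 2 of 5 (Ckm and Mylpf), their median log2 fold change being -0.16 and their sums 129105 to 138436 CPM in AL and 113459 to 149876 CPM in IF mice. Leukocyte markers fell for 2 of 5 (Cd3e and Csf1r), with a median of -0.44 and sums of 15.3 to 28.3 and 13.4 to 20.4 CPM. The part of these markers in the members' values was not tested. Without the IF mice 9, 10, 12 and 16, 1 member was higher and 4 lower, against 8.85% and 10.8% of all genes.

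The other translation genes of male muscle moved as follows, beside 11.5% of all genes higher and 11.6% lower. Of the TOP mRNAs 5 of 21 rose and 1 fell, with Eef1a1 (0.38 ± 0.09), Npm1 (0.32 ± 0.06), Eif4b (0.30 ± 0.06) and Naca (0.24 ± 0.06) among those that rose. Biogenesis genes rose for 14 of 58 and fell for 2, led by Gtpbp4 (0.50 ± 0.06), and small nucleolar RNA host genes rose for 7 of 12, led by Snhg11 (1.63 ± 0.30). Of 35 mTORC1 and translation control genes 7 rose and 6 fell, beside 11.5% and 11.6% of all genes. Ddit4, an inhibitor of mTORC1, went from 4.46 to 7.01 CPM in AL to 13.8 to 79.3 CPM in IF muscles (2.88 ± 0.31), and Myc (1.26 ± 0.23) and Deptor (0.86 ± 0.11) rose. Mitochondrial ribosomal proteins fell for 23 of 77 and rose for 4, led by Mrpl14 (-0.46 ± 0.14) and Mrpl54 (-0.41 ± 0.10).

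In female muscle none of 80 members was called (1 of 15308 genes, 0.00653%; 10 members and 10.7% of genes at an unadjusted edgeR p under 0.05, and no member by DESeq2), and the median was 0.14. The muscle response was higher in mice 25-40 than in mice 1-16 for 6 members and lower for none, against 7.38% and 6.77% of all genes. These were Rpl23a (difference 0.53 ± 0.12), Rps3 (0.51 ± 0.13), Rps2 (0.43 ± 0.10), Rpl15 (0.38 ± 0.11), Rpl3l (0.31 ± 0.10) and Rpl7l1 (0.28 ± 0.08). Scaled by library totals alone, 2 were higher, against 3.19% of all genes.

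Cortex showed no called member in either set. In male cortex 0 of 80 members passed, and 0 at an unadjusted p under 0.05 by edgeR or DESeq2, against 7.21% and 23.8% of all 18462 genes by edgeR, with a median log2 fold change of -0.05. In female cortex 0 of 80 passed, with 2 of 18403 genes called (0.0109%). There 9 members and 11.2% of genes had an unadjusted edgeR p under 0.05, DESeq2 called no member, the median was -0.17, and 76 of 80 lay below 0. Other protein-coding genes up to 1000 bases long had a median of -0.15 in the same comparison, those of over 1000 and up to 2000 bases, where the median length of the members falls, one of -0.085, and those over 5000 bases one of 0.03. Among the other translation genes of male cortex, 6 of 36 mTORC1 and translation control genes rose and 1 fell, led by Ddit4 (0.68 ± 0.12) and Castor1 (0.60 ± 0.16). Of 58 biogenesis genes 3 rose and 1 fell, and of 21 TOP mRNAs 1 rose (Eif4b, 0.23 ± 0.06) and 1 fell (Nap1l1, -0.21 ± 0.05). In the females no gene of these lists was called in any tissue. The difference between the sets in cortex gave no called member, with 2.03% of genes called, and no member against 15.4% of genes at an unadjusted p under 0.05 by edgeR (none by DESeq2).

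Tested against each other, the tissues of the males differed in their response. The liver response exceeded that of muscle for 61 of 80 members and was below it for 1, against 16.6% and 17% of all genes, with a median difference of 0.62. It exceeded that of cortex for 58 and was below it for 2, against 15.7% and 14.5%, with a median of 0.66. For Rpl41 the difference was 2.16 ± 0.24 from muscle and 2.24 ± 0.25 from cortex, and for Rps4x 1.41 ± 0.15 and 1.68 ± 0.15. Muscle and cortex differed for no member (5.21% of genes called; no member at an unadjusted p under 0.05 by edgeR or DESeq2, against 18.4% of genes by edgeR). In the females no member was called by edgeR or DESeq2 for liver less muscle, liver less cortex or muscle less cortex, where edgeR called 0.0611%, 0.0564% and 0.0047% of genes. At an unadjusted edgeR p under 0.05 there were 2, 17 and 13 members, against 9.59%, 11.7% and 6.5% of genes.

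The makeup of the ribosomal protein mRNA pool differed between the tissues of AL mice. Per kilobase of gene model, Rpl36, Rplp1 and Rps15 were the highest members in each tissue of mice 1-16. Their gene models were short, at 383, 499 and 630 bases against a median of 1775.5 for the members, and the order depends on this length. By median CPM without the length, Rpsa (572), Rpl28 (551) and Rps18 (534) lay above Rplp1 (448), Rpl36 (423) and Rps15 (369) in AL liver. In cortex Rplp1 was the highest by that measure too (877). In liver their levels were 1123 ± 161, 905 ± 152 and 589 ± 79.9 CPM per kilobase (SD, n = 8). In muscle the order was Rplp1 (1551 ± 226), Rpl36 (897 ± 190) and Rps15 (698 ± 118, n = 8), and in cortex Rplp1 (1824 ± 399), Rps15 (893 ± 191) and Rpl36 (587 ± 142, n = 7). The ranges of 1 SD overlapped for Rpl36 and Rplp1 in liver and for Rpl36 and Rps15 in muscle and in cortex. In each tissue the third of these also overlapped the fourth member in the order, which was Rpl38 in liver (482 ± 80.7), Rplp0 in muscle (568.1 ± 50.9) and Rpl41 in cortex (557 ± 133). In mice 25-40 the first 3 were the same in liver and cortex, while in muscle Rplp0 (633 ± 83.2) came after Rplp1 (1253 ± 302), with Rpl36 (596 ± 188) and Rps15 (543 ± 141) next and overlapping it. The lowest in both sets were Rpl10l, Rpl39l and Rpl3l in liver and cortex, and Rpl10l and Rpl39l in muscle, followed there by Rps10 and Rpl24, whose ranges of 1 SD overlapped.

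The paralogue pair of Rpl3 and Rpl3l changed order between the tissues. Rpl3l (GRCm39 chr17:24946794-24955117, plus strand), the form of Rpl3 that striated muscle uses, stood at 436 ± 17.6 CPM per kilobase in male AL muscle against 14.97 ± 2.05 for Rpl3. In cortex Rpl3 stood at 194 ± 20.8 and Rpl3l at 0.330 ± 0.120, and in liver Rpl3 at 27.6 ± 6.15 and Rpl3l at 0.217 ± 0.252. The order of Rpl3 and Rpl3l in muscle was the opposite of that in liver and cortex, with no overlap of the SD ranges. With TMM scaling the fitted log2 ratio of Rpl3l was 11.41 ± 0.37 for muscle over cortex, and that of Rpl3 was -2.65 ± 0.12. The CPM per kilobase use library totals instead and give lower ratios of muscle over cortex for both genes. The shift of all genes between these scalings is given below.

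Rps27l was the higher of its pair in liver, at 304 ± 33.5 against 105 ± 44.7 CPM per kilobase for Rps27. In muscle it was the lower, at 146 ± 10.3 against 247 ± 36.2, and in cortex lower still, at 19.3 ± 3.57 against 249 ± 55.4. With TMM scaling Rps27l in liver lay 4.82 ± 0.13 above cortex on the log2 scale. The CPM per kilobase use library totals and give a smaller difference, and the shift of all genes between these scalings is given below. Rpl22l1, the paralogue of Rpl22, was the lower of its pair in each tissue, at 6.19 ± 1.16 against 32.4 ± 7.14 in liver, 22.3 ± 3.29 against 55.1 ± 3.57 in muscle and 22.9 ± 4.96 against 42.6 ± 3.95 in cortex.

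As shares of the member counts in AL males, Rplp0 held a median of 4.04% in muscle, 1.65% in liver and 1.47% in cortex. The share of Rpl41 was 2.78% in cortex, 1.67% in muscle and 1.01% in liver. In the AL females Rplp0 held 5.17%, 1.62% and 1.48% in muscle, liver and cortex, and Rpl41 held 2.82%, 1.42% and 1.06% in cortex, muscle and liver. By medians the order of the tissues was that of the males for both genes. In both sets the shares of single libraries overlapped between liver and cortex for Rplp0 and between liver and muscle for Rpl41. After IF the median Rpl41 share of male liver, 2.80%, was close to that of AL cortex, a side-by-side of values without a test.

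**Figure D5:**
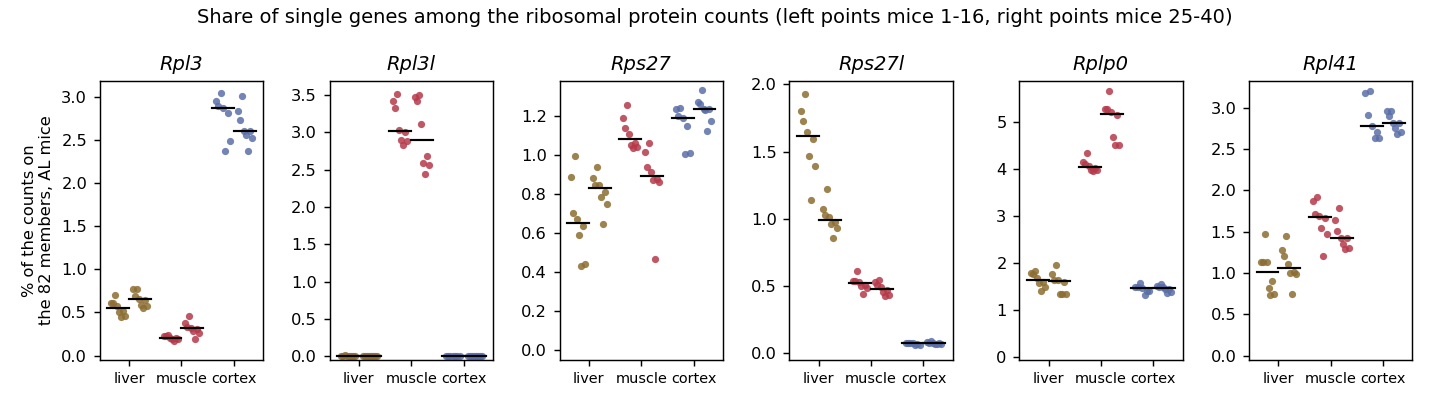
Percent of the counts on the 82 ribosomal protein genes held by Rpl3, Rpl3l, Rps27, Rps27l, Rplp0 and Rpl41 in liver, muscle and cortex of AL mice, 1 point per library, with mice 1-16 on the left and mice 25-40 on the right of each tissue. Rplp0 sits at medians of 4.04% and 5.17% in muscle, above 1.65% or less in liver and cortex.

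Summed over the members, the order of the tissues depended on scaling. With TMM scaling, 58 of 80 members were lower and 11 higher in liver than in muscle of AL males (40.9% and 40% of all genes), 39 were higher and 15 lower in liver than in cortex (38.5% and 46%), and 72 were higher and 3 lower in muscle than in cortex (36.1% and 45.3%). Scaled by library totals alone, the counts were 46 lower and 16 higher (36.5% and 43.7% of all genes), 9 higher and 54 lower (25% and 61.1%), and 21 higher and 23 lower (19% and 65.2%). In AL females TMM gave 34 lower and 18 higher in liver than in muscle (41.7% and 38.9% of all genes), 47 higher and 10 lower in liver than in cortex (37.8% and 47%), and 59 higher and 3 lower in muscle than in cortex (36.2% and 45%). Library totals gave 24 lower and 30 higher (36.6% and 43.3%), 16 higher and 34 lower (26.8% and 59.2%), and 12 higher and 33 lower (20.4% and 63.5%). For all genes in males the median log2 ratio moved from -0.24 to -1.29 for muscle over cortex between these scalings and from -0.21 to -1.04 for liver over cortex. The shares within the member counts, given above, do not use this scaling.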

How the data were processed

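Paired-end reads of poly(A) RNA were aligned by the authors to GRCm39/mm39 with Hisat2 and counted per gene with featureCounts, and the values deposited are raw read counts with the authors' length of each gene model in bases (another unit, given as deposited per the file headers). The submitters' processing notes also name CASAVA. The table was read as deposited, 95 of 96 libraries were used, and CPM are counts scaled to a library total of 1000000. Genes were filtered by edgeR's filterByExpr (minimum count 10, total 15). Diet and tissue comparisons used edgeR 4.0.16 (R 4.3.3; TMM, robust quasi-likelihood F-test) with Benjamini-Hochberg adjustment over all genes tested at 0.05. Diet responses were fitted per tissue and set of mice, differences as interaction terms, and tissue levels on AL mice. Scripts were tested on simulated counts. SE is that of the log2 fold change.

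The genes named were, per diet response, the 5 called members with the largest absolute fold change at a mean of at least 1 CPM, the paralogue pairs, the stalk proteins, Rpsa, Rps6, Rps12 and Rps21, the 3 highest and lowest per kilobase, and up to 4 called genes per list. Rpl5, Rpl9, Rpl11, Rpl14, Rpl26, Rpl28, Rpl31, Rpl35 and the genes of mRNA entry were added after their values were seen. The members and lists were chosen with earlier results of these data known. Tissues of 1 mouse come from the same animal, and the correlation of their deviations from the group means ran from -0.31 to 0.35. Alternatives were other scalings, DESeq2 1.42.0, other filters, a block on the replicate number or the mouse, an erythroid covariate, a joint fit, length offsets and libraries left out.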

Additional observations from a re-analysis of the deposited data

Results flagged for a closer look

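Of 80 tests of a group of libraries for a single distant sample (the member share in each tissue, set and diet, and single genes in male liver and muscle), 10 were marked. Chance marks about 1 in 20 of independent tests. These tests reuse the same libraries, so the 10 cannot be read as an excess. The liver of IF mouse 10 was the highest of its group, far from the others, for the share of counts on the 82 genes (3.49%), Rps4x (400.0 CPM), Rplp2 (601 CPM), Rps9 (710 CPM), Rps12 (316 CPM) and Rps21 (425 CPM). The liver of AL mouse 2 was so for Rpsa (891 CPM) and Rps2 (624 CPM), and that of AL mouse 6 for Rps27l (309 CPM) and Rps28 (155 CPM). With AL mouse 2 and IF mouse 10 left out, 61 members were higher and 1 lower in male liver, beside 62 and 1 with all libraries. The share of all genes called in that fit is not given here, so the count describes the members alone.

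Of the 80 members tested, the diet response differed by the test of the difference for 62 between liver and muscle (61 higher in liver, beside 16.6% of all genes) and for 60 between liver and cortex (58 higher in liver, beside 15.7%) in males. Between mice 25-40 and mice 1-16 it differed for 37 in liver (36 lower in mice 25-40, beside 10.9% of all genes) and for 6 in muscle. These 6 were higher in mice 25-40, which is 7.5% of the members beside 7.38% of all genes, so the muscle count is at the level of all genes. The differences in log2 fold change in liver, mice 25-40 minus mice 1-16, were -1.95 for Rpl41, -1.57 for Rps4x, -1.61 for Rplp2 and -1.44 for Rpl9.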

How the results depend on the processing

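Of the counts and medians that answer a comparison, 404 values under other settings stayed within 1.5 times the main count or within 1 SD between libraries of the main median, and 12 did not. These counts are totals of both directions, and library totals turned the direction of most calls in male muscle (7 higher and 1 lower), and in AL mice for liver over cortex in males (9 and 54) and for liver over muscle (30 and 24), liver over cortex (16 and 34) and muscle over cortex (12 and 33) in females. In male muscle, the fit over 3 tissues called 0 members. The erythroid covariate left 24 members for the liver difference between sets, and library totals left 2 for the muscle difference. For tissue levels in AL males, library totals called 44 for muscle over cortex (21 higher and 23 lower). Library totals moved the median log2 ratio of the members from -0.67 to -0.44 for liver over muscle, and reversed it from 0.27 to -0.56 for liver over cortex and from 1.02 to -0.037 for muscle over cortex. In AL females they reversed it from 0.46 to -0.17 and from 0.65 to -0.22. Length offsets gave -0.39 for liver over muscle and 0.60 for muscle over cortex in males, and 0.39 for muscle over cortex in females. Rpl35 in male liver reversed to 0.065 with library totals. Of values for single genes, 460 kept their call, 16 gained it and 19 lost it. The cause was not tested. In male liver 43 to 69 members were called in each setting, a range that describes the members alone. The share of all genes is given above for some of these settings only. AL and IF mice given the same replicate number in the labels are different animals. The correlations of their deviations ran from -0.43 to 0.48. A block on the replicate number called 65 members in male liver, 6 in male muscle and 0 in the other 4 diet responses. For the differences between tissues the block was the mouse. It called 59 members for liver against muscle and 57 for liver against cortex in males. For the differences between the sets the block was the replicate number, with 33 called in liver and 5 in muscle. The shares of all genes called under the blocks are not given here, so these counts describe the members alone. Leaving out libraries by marker counts and the length offsets were chosen after seeing the data. Reads shared with pseudogenes and overlapping genes limit all members.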
